A study of Mus musculus with 6 samples.

Results

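Genes for protein folding in the endoplasmic reticulum (ER) and for the unfolded protein response were followed in RNA-seq of mouse CD8+ T cells, with and without Dusp2, sorted by their surface CD44. The members came from a list of 40 gene names, of which 38 were found by exact symbol in a table of 18122 genes and 36 had a mean of at least 1 FPKM (fragments per kilobase, corrected for sequencing depth) over the 6 libraries. They are described by role as 3 sensors and factors, 11 chaperones and co-chaperones, 4 disulfide isomerases, 9 genes of the translocon, signal peptidase and TRAP complex, and 9 genes of ER-associated degradation (ERAD). Ern1, which encodes the sensor IRE1, had a mean of 0.599 FPKM and Wfs1, an ER membrane protein gene, 0.688 FPKM, and both fell below the limit. Derl3 at 2.42 FPKM and Eif2ak3 at 2.92 FPKM were the members nearest above it. The listed names Ero1l and Ero1lb are older symbols of Ero1a and Ero1b, which the table does hold. Those ER oxidases are described beside the members and are not counted among them.

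The cells were CD8+ T cells from lymph nodes of wild-type (WT) mice and of Dusp2-/- mice (Dusp2KO), which lack a nuclear phosphatase of MAP kinases. All of them were stimulated for 18 h with coated anti-CD3 (1 µg/mL), anti-CD28 (1 µg/mL), IL-4 (20 ng/mL) and IFN-α (50 ng/mL), a mixture meant to give virtual memory T cells. They were then sorted into a fraction labelled CD44super-high or CD44hi (CD44hi here) and a CD44lo fraction, with 2 CD44hi libraries and 1 CD44lo library per genotype. No untreated cells were analysed here, so every group shares the stimulation. The labels give no strain, age or sex, do not say how Dusp2 was deleted, and leave unsaid whether replicates are separate animals. The p-values therefore speak only to the spread among these libraries, which may be technical. Their treatment text also names Cd4-Cre Rpa1fl/fl mice in place of Dusp2-/- mice.

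Dusp2 in WT was at 82.6 and 83.9 FPKM in CD44hi and at 116 FPKM in CD44lo, against 0, 0.0283 (3 reads) and 0 FPKM in the Dusp2KO libraries. Rpa1 lay between 27.4 and 41.4 FPKM in all 6 libraries and was not lower in Dusp2KO. Reads recovered from the FPKM steps numbered from 23490008 in the Dusp2KO CD44lo library to 55830235 in WT CD44hi replicate 2. Summed CD8 T-cell markers (Cd8a, Cd8b1, Cd3e, Cd3d, Cd3g) reached 915 to 1309 FPKM, while Cd4 stayed at or under 0.0228 FPKM, and Cd44 was at 65.3 to 79.9 FPKM in CD44hi and 1.33 to 1.43 FPKM in CD44lo. Of 5 plasma cell markers 3 were analysed here: Jchain and Mzb1 did not exceed 0.0421 FPKM in any library, and Sdc1 was at 1.12 and 1.00 in WT CD44hi, 2.50 and 2.00 in Dusp2KO CD44hi, 0.237 in WT CD44lo and 0.572 FPKM in Dusp2KO CD44lo. Of 5 B-cell markers 2 were analysed: Cd79a did not exceed 0.379 FPKM, and Cd79b ran from 6.92 FPKM in WT CD44lo to 24.5 FPKM in Dusp2KO CD44hi replicate 2. Mitochondrial genes took 2.03% to 2.15% of reads in WT CD44hi, 2.73% to 2.94% in Dusp2KO CD44hi, 2.56% in WT CD44lo and 3.79% in Dusp2KO CD44lo. The part of these differences in the results was not tested, and in bulk RNA fewer cells of a type and less RNA per cell cannot be told apart.

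The 2 WT CD44hi libraries stood apart from each other in these genes, and this bears on every comparison that uses them. Replicate 1 was above replicate 2 in 34 of the 36 members, all but Sec61b and Sec61g, against 58.6% of all 9691 genes tested (mean of 1 FPKM or more). The median difference, as replicate 1 minus replicate 2 of log2(FPKM + 1), was 0.24 over the members and 0.04 over all genes. In the Dusp2KO pair replicate 1 was higher in 13 of 36 members, with a median difference of -0.01. Counts of called members, or their median, are therefore also given without each of these libraries.

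Secreted and membrane proteins enter the ER through the SEC61 translocon, lose their signal peptide to signal peptidase, and fold with the help of the chaperone BiP (Hspa5), the lectins calnexin and calreticulin, and disulfide isomerases. Proteins that do not fold are sent back across the membrane and degraded, which is ERAD. When folding falls behind, the sensors IRE1, PERK and ATF6 start the unfolded protein response: XBP1 and ATF6 raise transcription of chaperone and ERAD genes, and PERK lowers translation and raises ATF4 and its targets. T-cell activation is known to engage parts of this response as protein synthesis increases.

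The ER stress response element (ERSE: CCAAT, any 9 bases, CCACG) is the best-known site in promoters of this class and is bound by NF-Y together with ATF6 or XBP1. It was defined in part on ER chaperone promoters, so a high share among the members is not an independent finding. RefSeq promoter windows of assembly GRCm38.p6, from 250 bases before to 50 bases after the start, were matched by symbol to 28 of the 36 members. Atf6, Hyou1, Manf, Sec61a1, Sec11c, Spcs3, Ssr2 and Derl1 were not matched. On either strand, ERSE letters were present for 9 of the 28 members (32.1%), for 14 of 7588 tested genes with a window (0.185%), and in 0.119% of all 32851 windows. The related ERSE-II (ATTGG, any 1 base, CCACG) was found in 2 of 29 member windows and in 0.094% of the 9579 windows of tested genes. Of these matches, that of Herpud1 lay before the start and that of Dnajb11 after it. The unfolded protein response element TGACGTGG was in 0 of 29 member windows and in 0.866% of those of tested genes, and the ATF4 site TGATGNAAT in 0 and in 0.397%. The sequences below are shown because they carry these matches in chaperone, isomerase and ERAD genes. They run 5′ to 3′ on the strand of the gene, with capitals at the fixed letters, which read CGTGG, 9 bases, ATTGG where an ERSE lies on the other strand. In Hspa5 the element's nearest base is 46 bases before the start, and in Calr 143.
Hspa5, chr2:34772010-34772058, plus strand: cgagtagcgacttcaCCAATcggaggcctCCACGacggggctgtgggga
Hsp90b1, chr10:86705518-86705671, minus strand, with 2 matches: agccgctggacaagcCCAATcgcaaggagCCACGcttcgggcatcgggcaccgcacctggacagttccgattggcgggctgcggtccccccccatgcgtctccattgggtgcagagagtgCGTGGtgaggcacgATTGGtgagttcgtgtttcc
Calr, chr8:84847060-84847108, minus strand: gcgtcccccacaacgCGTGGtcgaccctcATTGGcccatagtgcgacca
Canx, chr11:50325785-50325833, minus strand: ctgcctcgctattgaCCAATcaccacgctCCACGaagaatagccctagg
Creld2, chr15:88819505-88819553, plus strand: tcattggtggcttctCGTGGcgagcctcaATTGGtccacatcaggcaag
Dnajc3, chr14:118937812-118937860, plus strand: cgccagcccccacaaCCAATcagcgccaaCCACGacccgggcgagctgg
Pdia6, chr12:17266476-17266524, plus strand: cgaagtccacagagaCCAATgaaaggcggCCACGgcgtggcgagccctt
Derl3, chr10:75893227-75893275, plus strand: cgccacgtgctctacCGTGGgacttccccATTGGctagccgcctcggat
Syvn1, chr19:6046517-6046565, plus strand: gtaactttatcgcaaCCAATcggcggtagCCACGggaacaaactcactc
Herpud1, chr8:94386362-94386402, plus strand, ERSE-II: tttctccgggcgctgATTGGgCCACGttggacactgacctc

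The members covered a wide range of levels, and their order was led by chaperones and disulfide isomerases. Calr, calreticulin, had the highest mean over the 6 libraries at 494 FPKM, followed by Hspa5 at 311, Pdia3 at 300, P4hb at 229, Canx at 176 and Hsp90b1 at 118 FPKM. These 6 genes made up 57.5% of the summed FPKM of the 36 members. The sensor genes were far lower for Atf6 (4.53 FPKM) and Eif2ak3 (2.92 FPKM), while Xbp1, which encodes the transcription factor, was at 60.4 FPKM. Summed over all 36, the members reached 3278 and 2781 FPKM in WT CD44hi, 3108 and 3124 in Dusp2KO CD44hi, 2361 in WT CD44lo and 2334 in Dusp2KO CD44lo. All 4 CD44hi sums lay above both CD44lo sums. As a share of the FPKM total, this was 0.875% to 1.07% in CD44hi and 0.701% to 0.763% in CD44lo.

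**Figure D1:**
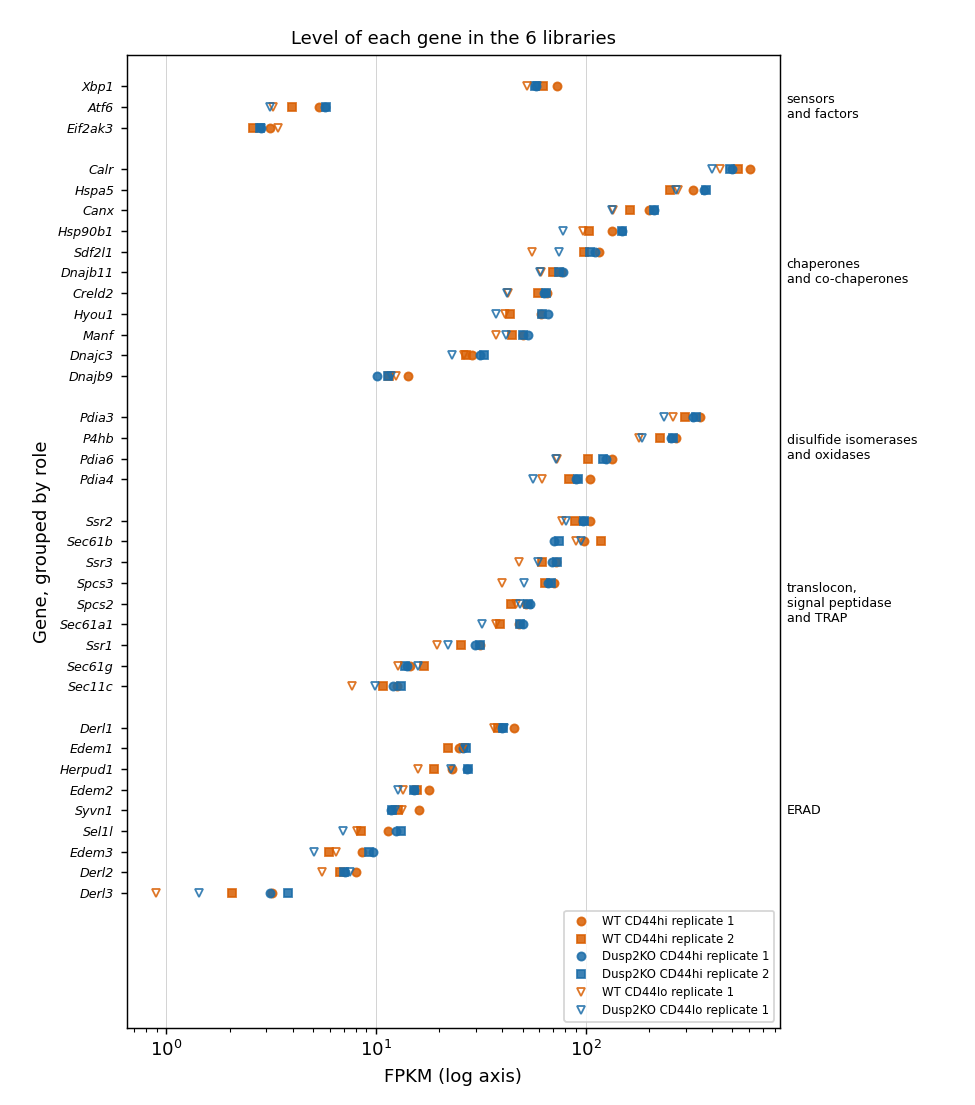
Level of each of the 36 genes in FPKM (log axis) in the 6 libraries, grouped by role and ordered by mean level within a role; orange is WT, blue Dusp2KO, filled symbols CD44hi and open triangles CD44lo. For most chaperone and isomerase genes the open triangles lie left of the filled symbols, while Eif2ak3, Dnajb9 and Edem1 do not separate the fractions.

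CD44hi and CD44lo cells were compared with genotype as a covariate, to see which folding genes go with the CD44hi fraction. In CD44hi, 22 of the 36 members were higher and 0 lower at an adjusted p under 0.05 (limma, additive model), where 16.6% of all 9691 genes were higher and 10.8% lower. Calreticulin, calnexin, endoplasmin (Hsp90b1) and all 4 disulfide isomerases were among them, whereas Hspa5, Xbp1 and Eif2ak3 were not. The median log2 fold change was 0.35 over the members and 0.05 over all genes. By role, 8 of 11 chaperone genes, 4 of 4 isomerase genes, 6 of 9 translocon and signal peptidase genes, 3 of 9 ERAD genes and 1 of 3 sensor genes were called higher. In 23 of 36 members all 4 CD44hi libraries lay above both CD44lo libraries, which held for 24.6% of all genes, and in 0 they lay below both, which held for 15.1%. Beside the 0 lower calls, 0 members were lower at an unadjusted p under 0.05. Limma voom on recovered reads also called 0 lower and 21 higher, where it called 10.2% of all genes lower and 16% higher.

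Among the disulfide isomerases, which form and rearrange disulfide bonds in the ER lumen, Pdia6 was at 134 and 103 FPKM in WT CD44hi, 124 and 121 in Dusp2KO CD44hi, 72.6 in WT CD44lo and 72.3 in Dusp2KO CD44lo. The 4 CD44hi values do not overlap the CD44lo values, and the log2 fold change was 0.72 ± 0.11 (SE, adjusted p = 0.00337). Pdia4 was at 105 and 83.4 FPKM in WT CD44hi, 89.4 and 91.5 in Dusp2KO CD44hi, and 61.5 and 55.9 in the WT and Dusp2KO CD44lo libraries, a rise of 0.64 ± 0.10 (SE, adjusted p = 0.00381) with no overlap. P4hb, which encodes protein disulfide isomerase itself, was at 270 and 227 FPKM in WT CD44hi, 254 and 261 in Dusp2KO CD44hi, and 179 and 185 in CD44lo. It rose by 0.47 ± 0.09 (SE, adjusted p = 0.0101), again without overlap. Pdia3, the isomerase that works with calnexin and calreticulin on glycoproteins, was at 350 and 296 in WT CD44hi, 323 and 334 in Dusp2KO CD44hi, and 260 and 236 FPKM in CD44lo. Its rise was 0.39 ± 0.10 (SE, adjusted p = 0.0257), a call lost in 7 of 18 alternatives.

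The oxidase Ero1a, which passes electrons from disulfide isomerases to oxygen, was at 19.4 and 14.1 FPKM in WT CD44hi, 26.4 and 27.4 in Dusp2KO CD44hi, 10.3 in WT CD44lo and 14.5 in Dusp2KO CD44lo. It rose by 0.74 ± 0.13 (SE, adjusted p = 0.00545), although WT CD44hi replicate 2 lay just below the Dusp2KO CD44lo library. Its paralogue Ero1b stayed between 1.41 and 1.73 FPKM, with a log2 fold change of -0.02 (adjusted p = 0.875).

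Among the chaperones, Sdf2l1, a partner of BiP and its J-domain proteins, had the highest fold change. It was at 115 and 98.4 FPKM in WT CD44hi, 111 and 105 in Dusp2KO CD44hi, 55.6 in WT CD44lo and 74.2 in Dusp2KO CD44lo, a rise of 0.73 ± 0.11 (SE, adjusted p = 0.00353) with no overlap. Hsp90b1, the HSP90 of the ER, was at 134 and 103 FPKM in WT CD44hi, 148 and 149 in Dusp2KO CD44hi, 97.5 in WT CD44lo and 78.2 in Dusp2KO CD44lo, and rose by 0.59 ± 0.16 (SE, adjusted p = 0.0333). WT CD44hi replicate 2 was only slightly above the WT CD44lo library there. The Hsp90b1 value was 0.26 (adjusted p = 0.221) without the Dusp2KO CD44lo library and 0.92 without the WT CD44lo library, and its call was lost in 6 of 18 alternatives (adjusted p from 0.00413 to 0.221). Creld2, an ER stress-inducible protein, lay between 59.2 and 65.4 FPKM in the 4 CD44hi libraries and at 42.4 and 41.9 in CD44lo, a rise of 0.57 ± 0.07 (SE, adjusted p = 0.00176). Canx, calnexin, was at 201 and 162 FPKM in WT CD44hi, 211 and 213 in Dusp2KO CD44hi, and 135 and 133 in CD44lo, a rise of 0.54 ± 0.11 (SE, adjusted p = 0.0117). Calr, the soluble relative of calnexin, was at 609 and 532 FPKM in WT CD44hi, 498 and 486 in Dusp2KO CD44hi, 439 in WT CD44lo and 401 in Dusp2KO CD44lo, and rose by 0.33 ± 0.10 (SE, adjusted p = 0.039). Both lectin genes separated the fractions without overlap, but the Calr call was lost in 8 of 18 alternatives. Hyou1, a nucleotide exchange factor for BiP, rose by 0.54. Manf, an ER-resident protein that is also secreted, rose by 0.31 and Dnajb11, a J-domain partner of BiP, by 0.28. All passed the threshold, but the Hyou1 and Dnajb11 calls were each lost in 6 of 18 alternatives and the Manf call in 4. Without the Dusp2KO CD44lo library Hyou1 was at 0.32 and no longer passed (adjusted p = 0.225).

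Hspa5 itself, the HSP70 of the ER, was at 324 and 252 FPKM in WT CD44hi, 368 and 375 in Dusp2KO CD44hi, 277 in WT CD44lo and 268 in Dusp2KO CD44lo. WT CD44hi replicate 2 lay below both CD44lo libraries, and the log2 fold change of 0.26 ± 0.14 (SE) did not pass (adjusted p = 0.197). Dnajc3, a J-domain co-chaperone that also inhibits PERK, had a log2 fold change of 0.27 (adjusted p = 0.0926). Dnajb9, another J-domain partner of BiP and a known XBP1 target, was at 14.2 and 11.5 FPKM in WT CD44hi, 10.1 and 11.4 in Dusp2KO CD44hi, and 12.4 and 11.8 in CD44lo, with a log2 fold change of -0.04 (adjusted p = 0.794). Its fractions overlapped fully.

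In the translocon group, Spcs3, a subunit of signal peptidase, was at 70.2 and 63.9 FPKM in WT CD44hi, 66.0 and 68.0 in Dusp2KO CD44hi, 39.9 in WT CD44lo and 50.5 in Dusp2KO CD44lo. It rose by 0.57 ± 0.10 (SE, adjusted p = 0.0052), with no overlap. Of the TRAP genes, which help substrates through the translocon, the members Ssr1, Ssr3 and Ssr2 rose by 0.47, 0.36 and 0.30. The Ssr3 call was lost in 7 of 18 alternatives and the Ssr2 call in 9. Ssr4, also a TRAP gene, is not a member and was listed with the other translocation genes. Sec11c, a catalytic subunit of signal peptidase, was between 10.8 and 13.2 FPKM in CD44hi and at 7.64 and 9.91 in CD44lo, a rise of 0.43 ± 0.10 (SE, adjusted p = 0.017). The channel subunit Sec61a1 was at 48.2 and 39.2 FPKM in WT CD44hi, 49.9 and 48.5 in Dusp2KO CD44hi, 37.5 in WT CD44lo and 32.0 in Dusp2KO CD44lo, and rose by 0.41 ± 0.12 (SE, adjusted p = 0.0422). That call was lost in 10 of 18 alternatives, and Sec61a1 was at 0.21 (adjusted p = 0.248) without the Dusp2KO CD44lo library. The smaller channel subunits Sec61b and Sec61g, and the signal peptidase subunit Spcs2, did not pass, with log2 fold changes of -0.07, 0.05 and 0.09.

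ERAD genes were mixed. Derl3, a derlin of the ER membrane with high levels in secretory cells, was the lowest member by level and had the highest log2 fold change of all members. It was at 3.20 and 2.06 FPKM in WT CD44hi, 3.13 and 3.79 in Dusp2KO CD44hi, 0.897 in WT CD44lo and 1.43 in Dusp2KO CD44lo, a rise of 0.89 ± 0.14 (SE, adjusted p = 0.00405) with no overlap. Sel1l, the scaffold of the main ERAD ligase, was at 11.4 and 8.51 in WT CD44hi, 12.5 and 13.1 in Dusp2KO CD44hi, and 8.08 and 6.99 FPKM in CD44lo, and rose by 0.53 ± 0.15 (SE, adjusted p = 0.0389). Without the Dusp2KO CD44lo library Sel1l was at 0.26 (adjusted p = 0.251), and without the WT CD44lo library at 0.79; the call was lost in 8 of 18 alternatives. Its partner Syvn1, the ligase HRD1, had a log2 fold change of 0.03 (adjusted p = 0.86). Herpud1, an adaptor of that ligase, rose by 0.31 ± 0.09 (SE, adjusted p = 0.0467), a call lost in 10 of 18 alternatives (adjusted p from 0.0229 to 0.13). The mannosidase-like genes Edem2 (0.26, adjusted p = 0.0511), Edem3 (0.46, adjusted p = 0.0921) and Edem1 (-0.07, adjusted p = 0.568), and the derlins Derl1 (0.08) and Derl2 (0.14), did not pass.

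Of the sensors and factors, Atf6 was at 5.37 and 3.97 FPKM in WT CD44hi, 5.71 and 5.78 in Dusp2KO CD44hi, and 3.22 and 3.14 in CD44lo. It rose by 0.56 ± 0.13 (SE, adjusted p = 0.0165), with no overlap. Xbp1 was at 73.2 and 62.7 FPKM in WT CD44hi, 57.9 and 57.4 in Dusp2KO CD44hi, 52.4 in WT CD44lo and 58.8 in Dusp2KO CD44lo, and its log2 fold change of 0.17 ± 0.11 (SE) did not pass (adjusted p = 0.296). These are gene-level values and do not separate the spliced Xbp1 mRNA that IRE1 makes from the unspliced one. Eif2ak3, which encodes PERK, lay between 2.58 and 3.41 FPKM in all libraries, with its highest value in WT CD44lo (log2 fold change -0.10, adjusted p = 0.485).

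The number of calls depended on single libraries. The direction of the 22 called genes did not, but they were picked as higher in these same libraries. In all of them but Herpud1 the 4 CD44hi libraries lay above both CD44lo libraries, so leaving out 1 library could not reverse them. All 22 stayed above 0 in each of the 18 alternative settings that tested them, and 8 of them (Sdf2l1, Creld2, Pdia4, Pdia6, P4hb, Spcs3, Ssr1 and Derl3) passed the threshold in every setting that tested them. Leaving out a Dusp2KO CD44hi library brought the count of higher members to 11 (replicate 1, with 10.1% of all genes higher) or 9 (replicate 2, 9.58%). It was 9 without WT CD44hi replicate 1 (9.42% of all genes), 11 with no filter on low values (6.93%) and 13 under median-ratio scaling (12.9%). Calls over all genes thus fell as well. The members' median was 0.35 and 0.36 without Dusp2KO CD44hi replicate 1 and 2, and 0.29 without WT CD44hi replicate 1. It was 0.32 without the Dusp2KO CD44lo library and 0.36 without the WT CD44lo library. Of all called genes 60.6% were higher as deposited, 47.5% under median-ratio scaling and 70.2% after rescaling to equal totals. Of the 9 members with an ERSE before the start, 6 were called higher, with a median log2 fold change of 0.54, and of the other 19 members with a window 9 were, with a median of 0.28. These are descriptions without a test.

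**Figure D2:**
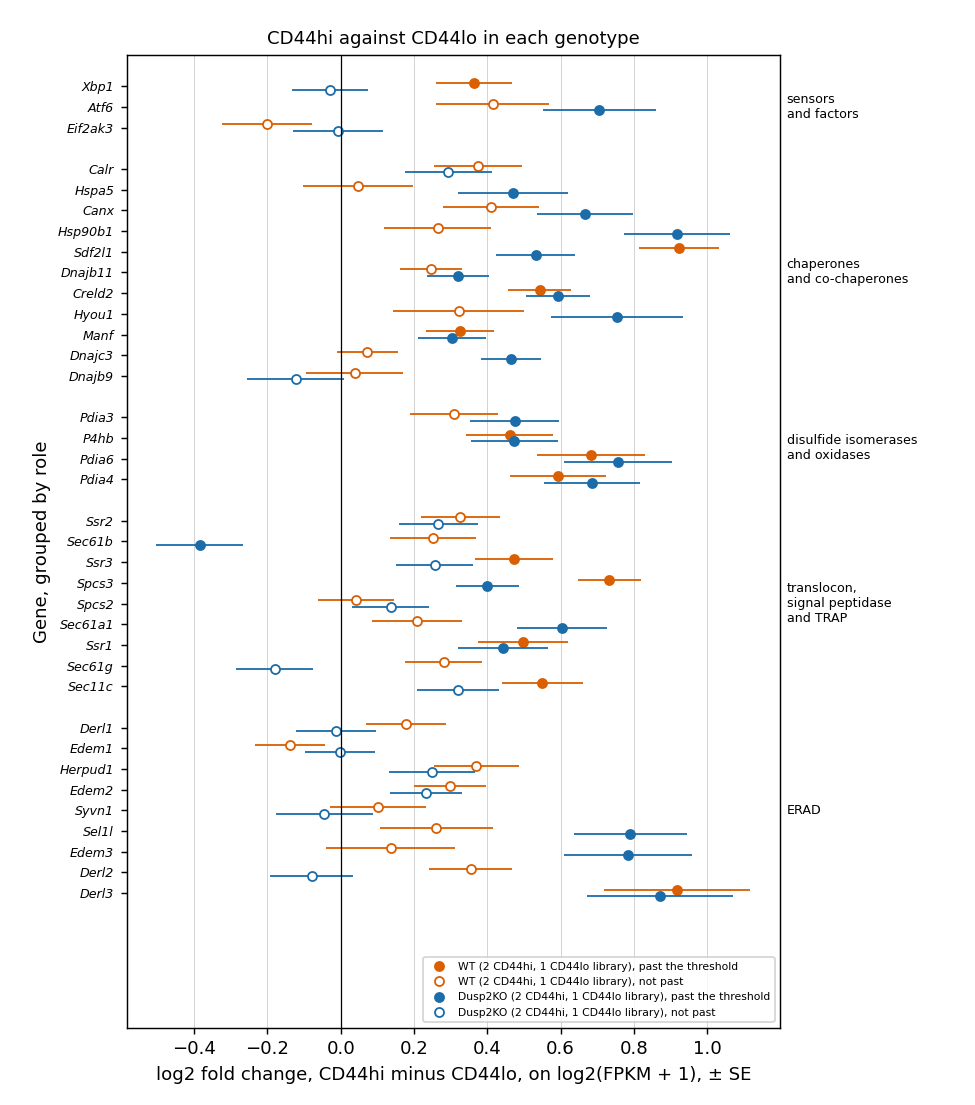
Log2 fold change of each gene between CD44hi and CD44lo in WT (orange) and Dusp2KO (blue), on log2(FPKM + 1), with the SE of the limma fit; filled points passed an adjusted p of 0.05. Most points lie right of 0 in both genotypes, Derl3 and Sdf2l1 being among the farthest to the right in WT (both 0.92), and Sec61b alone is filled on the left, in Dusp2KO.

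Within each genotype the same comparison rests on 2 CD44hi libraries against 1 CD44lo library, whose spread is taken from the CD44hi pairs. In WT, 12 of 36 members were higher and 0 lower in CD44hi (15.4% and 10.7% of all genes). Their median log2 fold change was 0.32. At an unadjusted p under 0.05 and by voom, 0 were lower as well, where voom called 12.2% of all genes lower. In Dusp2KO, 20 were higher and 1 lower (23.6% and 16.5% of all genes), with a median of 0.36. The genes higher in both were Pdia4, Pdia6, P4hb, Creld2, Sdf2l1, Manf, Spcs3, Ssr1 and Derl3. These 9 genes are 75% of the WT calls and 45% of the Dusp2KO calls, and 9.33% of all genes were higher in both.

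In WT, Sdf2l1 rose by 0.92 ± 0.11 (SE, adjusted p = 0.00191) and Spcs3 by 0.73 ± 0.09 (SE, adjusted p = 0.00188). Xbp1 was higher in WT, by 0.36 ± 0.10 (SE, adjusted p = 0.0433), and at -0.03 (adjusted p = 0.844) in Dusp2KO, where the CD44lo library lay above both CD44hi libraries. The Xbp1 call in WT was lost in 6 of 17 alternatives, with adjusted p from 0.00239 to 0.172. Among the WT calls were also Ssr3 at 0.47 and Sec11c at 0.55, which had log2 fold changes of 0.26 and 0.32 in Dusp2KO without passing there.

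In Dusp2KO, Hsp90b1 rose by 0.92 ± 0.15 (SE, adjusted p = 0.00411), Sel1l by 0.79 ± 0.16 (SE, adjusted p = 0.00878) and Hyou1 by 0.75 ± 0.18 (SE, adjusted p = 0.0174). In WT these genes had log2 fold changes of 0.26, 0.26 and 0.32, none past the threshold. Hspa5 passed in Dusp2KO (0.47 ± 0.15, SE, adjusted p = 0.0457) and not in WT (0.05, adjusted p = 0.836), and Dnajc3 likewise (0.47, adjusted p = 0.00608, and 0.07, adjusted p = 0.547). The Hspa5 call was lost in 5 of 17 alternatives (adjusted p from 0.00066 to 0.209), among them each left-out Dusp2KO CD44hi library (0.0949 and 0.117). Sec61b, the small β subunit of the translocon, fell in Dusp2KO by 0.39 on the log2 scale (adjusted p = 0.04), from 94.7 FPKM in CD44lo to 70.2 and 74.4 in CD44hi, and was at 0.25 (adjusted p = 0.159) in WT. That call was lost in 7 of 17 alternatives, with adjusted p from 0.00118 to 0.183 over them and a log2 fold change of -0.17 once a trend on gene length was removed.

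The difference between the genotypes in these changes was tested as an interaction. By limma, 0 of 36 members passed in either direction, where 2.73% of all genes had a higher and 1.49% a lower log2 fold change in Dusp2KO than in WT. At an unadjusted p under 0.05, 4 members had a higher log2 fold change in Dusp2KO (Hsp90b1, Dnajc3, Sel1l, Edem3). Another 6 had a lower one (Xbp1, Sdf2l1, Sec61b, Sec61g, Spcs3, Derl2). At least 2.73% and 1.49% of all genes reach that unadjusted p, being past the adjusted threshold. Voom called 0 members in both directions, where it called 4.44% of all genes higher and 1.42% lower. Hsp90b1 at 0.65 ± 0.21 (SE, adjusted p = 0.105) and Sec61b at -0.64 ± 0.17 (SE, adjusted p = 0.0734) had the highest and the lowest interaction. Without WT CD44hi replicate 1 10 members had a higher and 3 a lower fold change in Dusp2KO past the threshold, where 16.9% and 14.6% of all genes did. Without WT CD44hi replicate 2 they numbered 2 and 7, where 8.47% and 9.42% of all genes passed.

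Within genotypes the counts moved with the filter, and the fold changes with the libraries. With no filter on low values, 1 member was higher in WT and 2 in Dusp2KO, where 2.92% and 6.37% of all genes were. In WT the median over the members was 0.24 without WT CD44hi replicate 1 and 0.45 without WT CD44hi replicate 2. Over all genes these medians were 0.03 and 0.07. In Dusp2KO the members' median was 0.40 without Dusp2KO CD44hi replicate 1 and 0.36 without Dusp2KO CD44hi replicate 2. Of all called genes, 59% were higher in WT as deposited and 45.9% under median-ratio scaling, and 58.8% were higher in Dusp2KO as deposited and 77% after rescaling to equal totals, which moved the median of all genes in Dusp2KO from 0.05 to 0.19. Relative to that median the members stood 0.31 higher under both scalings.

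Other genes of the same pathways, 83 tested, were read beside the members by list. In the additive comparison of CD44hi with CD44lo, 19 were higher (22.9%) and 5 lower (6.02%), where 16.6% of all genes were higher and 10.8% lower. N-glycosylation genes had 7 of 15 higher and 0 lower, led by Rpn1, a subunit of the oligosaccharyltransferase, which was at 96.4 and 79.9 FPKM in WT CD44hi, 92.1 and 92.0 in Dusp2KO CD44hi and 55.1 and 58.4 in CD44lo (0.65 ± 0.09, SE, adjusted p = 0.00217). Further chaperones and prolyl isomerases had 6 of 12 higher, among them Cnpy2 (0.52) and Ppib (0.35), and 1 lower, the peptide-loading protein Tapbp (-0.33). Further disulfide enzymes had 5 of 11 higher and 0 lower, with Tmx1, a membrane thioredoxin, at 0.74 ± 0.11 (SE, adjusted p = 0.0025). At an unadjusted p under 0.05, and by voom, 0 genes were lower in the N-glycosylation and disulfide lists as well. Voom called 10.2% of all genes lower.

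Fewer genes were higher in the remaining lists. The PERK arm and integrated stress response had 0 of 8 higher and 3 lower: Cebpb (-0.54, adjusted p = 0.0273), Trib3 (-0.40, adjusted p = 0.0492) and Ppp1r15a (-0.35, adjusted p = 0.0143). Atf4 itself was between 114 and 135 FPKM in all 6 libraries. Other transducers had 1 of 7 higher (Mbtps2, the protease that frees ATF6, 0.50) and 1 lower (Creb3, -0.54). In the signal recognition particle and other translocation list 0 of 14 passed in either direction, and in the list of other ERAD genes 0 of 16 did, by the same limma fit. At an unadjusted p under 0.05 the first of these lists had 1 gene higher and 0 lower, and the second 1 and 2. The PERK arm list had 0 higher. Voom called 0 in each of these cases, where it called 16% of all genes higher and 10.2% lower.

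**Figure D3:**
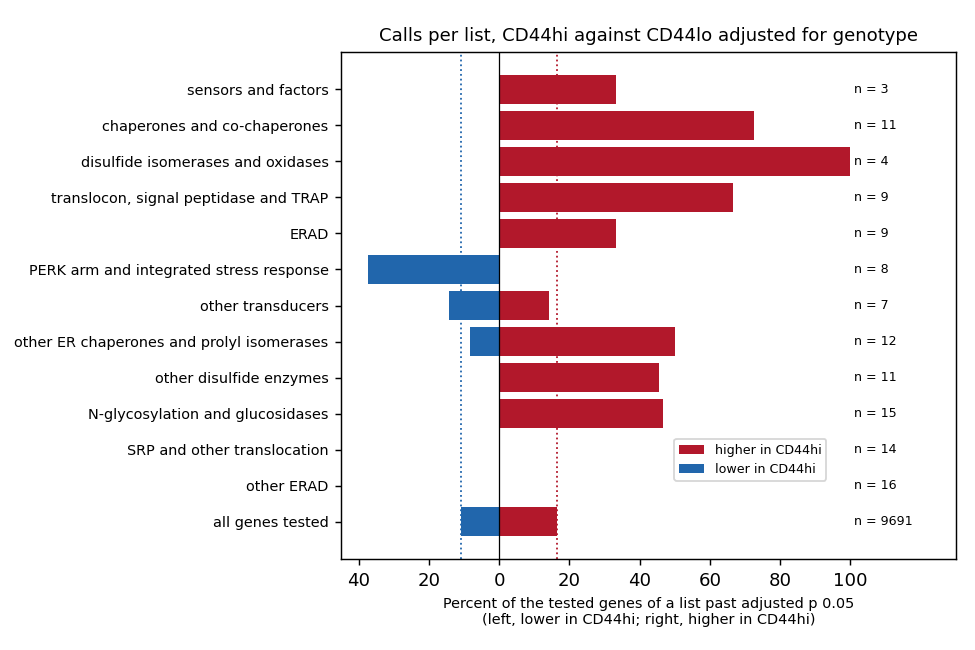
Percent of the tested genes of each list called higher (red, to the right) or lower (blue, to the left) in CD44hi against CD44lo, adjusted for genotype; the upper 5 lists are the members by role, dotted lines mark all 9691 genes (16.6% and 10.8%), and n is the number tested. Red bars of the isomerase (100%), chaperone (72.7%) and translocon (66.7%) roles extend far past the dotted line, and the PERK arm list has a blue bar only (37.5%).

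Dusp2KO and WT cells were compared within CD44hi, 2 libraries each, to ask which genes of the sorted fraction differ without Dusp2. In these genes 1 of 36 members was higher (Herpud1) and 1 lower (Sec61b) in Dusp2KO, where 12.9% of all genes were higher and 13.8% lower. The median log2 fold change was 0.06 over the members and -0.02 over all genes. Both Dusp2KO libraries lay above both WT libraries in 12 members (Edem3, Atf6, Hspa5, Sec61a1, Edem1, Spcs2, Hsp90b1, Herpud1, Dnajc3, Hyou1, Canx and Sel1l), which held for 32% of all genes. They lay below both in 7 (Edem2, Sec61b, Calr, Sec61g, Xbp1, Dnajb9 and Syvn1), which held for 36.2%.

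Herpud1 was at 22.9 and 18.8 FPKM in WT CD44hi and 27.1 and 27.4 in Dusp2KO CD44hi, a rise of 0.38 ± 0.10 (SE, adjusted p = 0.031). The WT values do not overlap the Dusp2KO values, and the 2 WT libraries differ from each other about as much as the higher of them differs from Dusp2KO. Without Dusp2KO CD44hi replicate 1 its adjusted p was 0.0587, without replicate 2 it was 0.0732, and with no filter it was 0.179, within a range of 0.00125 to 0.179 over 18 alternatives. Without WT CD44hi replicate 2 its log2 fold change was 0.24. The setting with no filter called only 1 gene higher and 1 lower of all 18122. Sec61b was at 98.0 and 118 FPKM in WT CD44hi and 70.2 and 74.4 in Dusp2KO CD44hi, a fall of 0.56 on the log2 scale (SE 0.10, adjusted p = 0.00988). It passed in 17 of the 18 alternatives and was lost with no filter on low values (adjusted p = 0.111, range 1.53e-05 to 0.111).

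Further members separated the genotypes without passing the test, which is common over all genes too. Both Dusp2KO libraries lay above both WT libraries in 33.3% of members and 32% of all genes, and below both in 19.4% and 36.2%. Hspa5, at 324 and 252 FPKM in WT and 368 and 375 in Dusp2KO, had a log2 fold change of 0.38 ± 0.12 (SE, adjusted p = 0.0634). Hsp90b1 had 0.34 ± 0.12 (SE, adjusted p = 0.078), Sel1l 0.34 (adjusted p = 0.087), Edem3 0.36 (adjusted p = 0.11) and Dnajc3 0.20 (adjusted p = 0.0698). In the other direction Xbp1 had -0.23 (adjusted p = 0.0883). Without WT CD44hi replicate 2 Xbp1 was at -0.34 and passed (adjusted p = 0.00759), without replicate 1 it was at -0.12, and over 18 alternatives its adjusted p ran from 0.00759 to 0.295. Further negative values that did not pass were those of Syvn1 at -0.25 (adjusted p = 0.126), Dnajb9 at -0.23 (adjusted p = 0.159) and Calr at -0.21 (adjusted p = 0.156, and 0.01 after quantile normalization). All 4 disulfide isomerases were within 0.07 of 0. Ero1a, beside the members, was higher in Dusp2KO by 0.67 ± 0.13 (SE, adjusted p = 0.0164), with 26.4 and 27.4 against 19.4 and 14.1 FPKM.

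These counts turned on the WT pair. Without WT CD44hi replicate 1, the library with the higher members, 18 members were higher and 2 lower in Dusp2KO, where 22.2% and 20% of all genes were. Without WT CD44hi replicate 2, 2 members were higher and 7 lower, where 13.5% and 18.6% of all genes were. Without Dusp2KO CD44hi replicate 1 and 2 the members' median log2 fold change was 0.07 and 0.05, and that over all genes -0.02 and -0.01. With no filter on low values 0 members passed in either direction. Of all 18122 genes 1 was higher and 1 lower in that setting, so it says little about the members. Voom on recovered reads called 3 members higher and 1 lower, where 15.5% and 15% of all genes were. In the limma fit 6 members were higher and 2 lower at an unadjusted p under 0.05. At least 12.9% and 13.8% of all genes reach that unadjusted p, being past the adjusted threshold. Of all called genes 48.3% were higher as deposited and 59.2% after rescaling to equal totals.

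**Figure D4:**
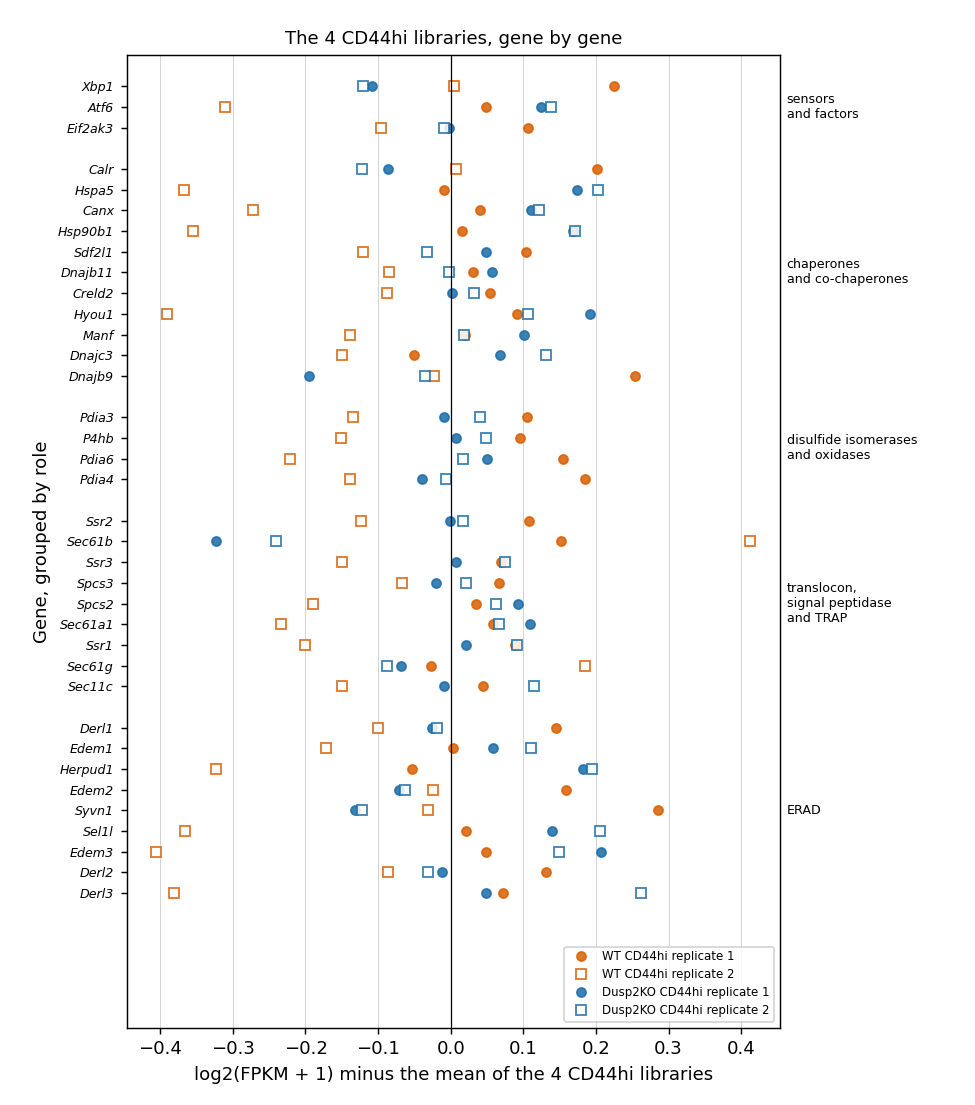
Each gene's log2(FPKM + 1) in the 4 CD44hi libraries, minus their mean; orange is WT, blue Dusp2KO, filled circles replicate 1 and open squares replicate 2. The WT libraries lie apart, replicate 1 above replicate 2 in 34 of 36 genes, while the Dusp2KO libraries lie close together, and the Sec61b points of Dusp2KO are the farthest left of their genotype.

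Of the 83 other pathway genes tested, 11 (13.3%) were higher and 10 (12%) lower in Dusp2KO CD44hi, close to the 12.9% and 13.8% of all genes. In the PERK arm list, Ddit3, the stress factor CHOP, was at 17.1 and 14.8 FPKM in WT and 7.12 and 7.40 in Dusp2KO, a fall of 1.03 on the log2 scale (adjusted p = 0.00124). Ppp1r15a, the phosphatase subunit that reverses PERK signalling, was at 30.7 and 29.4 in WT and 18.0 and 18.9 FPKM in Dusp2KO, a fall of 0.68 (adjusted p = 0.0019). Trib3, an ATF4 and CHOP target, went the other way, from 1.25 and 1.71 to 2.90 and 3.28 FPKM (0.72, adjusted p = 0.00868). Vcp, the ATPase that extracts ERAD substrates, was at 150 and 156 FPKM in WT and 101 and 99.0 in Dusp2KO, a fall of 0.61 (adjusted p = 0.00268), and 4 of 16 other ERAD genes fell while 0 rose (0 also at an unadjusted p under 0.05 and by voom). Of the further disulfide enzymes 4 of 11 were higher, namely Txndc5, Tmx1, Tmx3 and Tmx4. In that list 0 were lower (1 at an unadjusted p under 0.05, and 1 by voom). Voom called 15.5% of all genes higher and 15% lower.

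In the CD44lo fraction, with 1 library per genotype, the values have no replicate check. By a rule of a 2-fold difference on log2(FPKM + 1), 0 of 36 members differed, where 1.68% of all genes did. The median difference was -0.01, from -0.31 in Hsp90b1 (78.2 FPKM in Dusp2KO and 97.5 in WT) to 0.50 in Herpud1 (22.8 and 15.8 FPKM). Sdf2l1, at 74.2 and 55.6 FPKM, had a difference of 0.41. Herpud1 was thus higher in Dusp2KO in both fractions, while Hspa5 was at 268 FPKM in Dusp2KO and 277 in WT here.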

How the data were processed

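Bulk RNA-seq libraries of CD8+ T cells, 6 in all, were deposited by the authors as 1 table of FPKM values per gene. The submitters' processing notes list HISAT2 2.0.5 as the tool, and both mm39 and hg38 as builds. No source used here gives the counter, its handling of reads shared between similar genes, or the annotation. By the labels' protocols, RNA was extracted with Trizol, while a description field names 10X Genomics. Genotype and fraction were taken from the titles.

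The main test was limma 3.58.1, under R 4.3.3, applied to log2(FPKM + 1). The pseudocount of 1 understates changes of low genes, and 9691 genes averaging 1 FPKM or more were tested. It used a variance trend, Benjamini-Hochberg adjustment over all 9691 genes and a two-sided threshold of 0.05. An additive model of fraction and genotype had 3 residual degrees of freedom. A model with 1 coefficient per group had 2, both from the CD44hi pairs. Fitted fold changes and SEs are on that scale.

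Whole reads were recovered from the FPKM steps for 16220 of 16220 rows above 0 in 2 or more libraries (100%, tolerance 1e-06 reads). They gave the depths and limma voom as an alternative, with the calls given in the report.

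The members, lists, motifs and tests were chosen with earlier results of these data known. Members were named by role, with full statistics for those past the threshold with the largest changes per role and for abundant members. Beyond that rule, further genes were named after their values were seen. Promoters came from RefSeq on GRCm38.p6 and were matched by symbol, since that is not the build of the notes. Protein sequences were not used here. The test was tried on simulated data. Alternatives were other pseudocounts, filters, scalings, variance models, a length correction, a replicate block, voom and leaving out each library.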

Additional observations from a re-analysis of the deposited data

Results flagged for a closer look

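The change between CD44hi and CD44lo differed between the genotypes, by the interaction term of limma, for 2 of the 83 other pathway genes, both subunits of the oligosaccharyltransferase. By direction, 2.41% of the 83 had a lower and 0% a higher log2 fold change in Dusp2KO than in WT. Over all genes these shares were 1.49% and 2.73%, so 2 calls are close to the share of all genes. Dad1 had an interaction of -0.72 ± 0.13 (SE, adjusted p = 0.0441) on the log2 scale: it was at 40.4 and 36.1 FPKM in WT CD44hi against 31.5 in WT CD44lo, and at 26.7 and 28.3 FPKM in Dusp2KO CD44hi against 37.8 in Dusp2KO CD44lo. Tmem258 had an interaction of -0.68 ± 0.12 (SE, adjusted p = 0.0436), with 29.4 and 27.6 FPKM against 22.5 in WT and 23.5 and 25.5 FPKM against 31.4 in Dusp2KO. In each gene CD44hi lay above CD44lo in WT and below it in Dusp2KO. The call was lost in 4 of 16 alternatives for Dad1 (adjusted p from 0.00122 to 0.149) and in 5 of 16 for Tmem258 (adjusted p from 0.00183 to 0.137). Each CD44lo group is 1 library.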

How the results depend on the processing

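No pairing of the CD44hi libraries by replicate number was seen between the genotypes: the deviations of same-numbered CD44hi libraries from their group means had a correlation of 0.02 over genes. Whether the CD44hi and CD44lo libraries of a genotype are paired could not be tested with 1 CD44lo library each. With the number as a replicate block, members called higher were 12 in the additive comparison and 23 in WT, where 10.3% and 18.8% of all genes were. Under the block, Dusp2KO against WT in CD44hi had 7 higher and 3 lower (16.1% and 18.2% of all genes). The interaction had 4 higher and 2 lower (8.47% and 7.68% of all genes). With no filter on low values, the higher counts were 11 (additive), 1 (WT) and 2 (Dusp2KO), where 6.93%, 2.92% and 6.37% of all genes were. For Dusp2KO against WT 0 members passed in either direction with no filter, where 1 gene of 18122 was higher and 1 lower. Median-ratio scaling gave 13 higher in the additive comparison (12.9% of all genes), and voom 3 higher for Dusp2KO against WT (15.5%). The 1 member lower in Dusp2KO CD44hi than CD44lo became 0 with no filter, after rescaling to a total of 1000000, quantile normalization or length correction, and without the variance trend.

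Leaving out each library in turn gave, for the additive comparison, 9 to 25 higher and 0 to 1 lower, for WT 12 to 29 and 0 to 1, for Dusp2KO 13 to 26 and 0 to 2, for Dusp2KO against WT in CD44hi 0 to 18 and 1 to 7, and for the interaction 0 to 10 and 0 to 7. These ranges alone do not show a change particular to the members: in each comparison, calls moved over all genes too. In the additive comparison 9.42% of them were higher without WT CD44hi replicate 1 and 17.9% without WT CD44hi replicate 2, beside 16.6% as deposited. A within-genotype contrast could not be formed without its CD44lo library, nor the interaction without either.

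Over the 36 members, the 5 tested comparisons and all alternatives, a direction changed 93 times, each time for a value not called as deposited and at most 0.21 in size. Without a CD44lo library the additive value is the other genotype's contrast: Sec61b (0.25) and Dnajb9 (0.04) turned positive without the Dusp2KO CD44lo library, and Sec61g (-0.18), Derl2 (-0.08) and Syvn1 (-0.04) negative without the WT one. Over the libraries left out, the additive value ran from -0.0286 (without the WT CD44lo library) to 0.3641 for Xbp1 and from -0.0143 to 0.1783 for Derl1. In Dusp2KO, Xbp1 became 0.1092 after rescaling to equal totals, 0.012 by quantile normalization, 0.04 by length correction and 0.0298 with the replicate block, and Derl1 became 0.1232 after rescaling, 0.0485 by length correction and 0.0453 with the block. For Dusp2KO against WT in CD44hi, Calr became 0.013 by quantile normalization and Derl1 0.0008 after rescaling. Without each WT CD44hi library that value ranged from -0.0896 to 0.1504 for Pdia3, from -0.1006 to 0.1318 for Ssr2 and from -0.1679 to 0.0777 for Derl1. The cause was not tested. Depth limits Derl3 most, with 68 to 399 reads per library, and the 2-fold rule found 0 members in the CD44lo comparison under each scaling and pseudocount tried. Of all called genes in the interaction, 64.8% were higher as deposited, 87.8% after rescaling and 82.3% after length correction.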
